A study of Homo sapiens with 8 samples.

Results

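The metallothionein genes described here are MT1A, MT1E, MT1F, MT1G, MT1L, MT1M, MT1X and MT2A, the 8 rows of the count table that carry those names among 25369 named genes. They were measured by poly(A) RNA-seq in UWB1.289, a human ovarian carcinoma line whose mutated BRCA1 gives no functional protein (BRCA1-null), and in its derivative transduced with BRCA1 (BRCA1+). Each line received DMSO (control) or 0.5 uM entinostat, an inhibitor of the histone deacetylases HDAC1 and HDAC3, for 24 h, which gave 4 groups of 2 libraries. The question of the design is how the presence of BRCA1 and the inhibition of histone deacetylases change expression. BRCA1+ is a single transduced derivative of a single line, so BRCA1 itself and any other difference between the lines cannot be told apart. Nothing in the labels says that replicates were separate cultures, and the p-values then measure only the spread between these libraries.

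Metallothioneins are small, cysteine-rich proteins of the cell interior that bind zinc and copper through their cysteines, and they also take up toxic metals such as cadmium. Zinc activates the transcription factor MTF1, which binds metal response elements in the promoters of metallothionein genes and of the zinc exporter SLC30A1. Glucocorticoids, oxidants and chromatin state are further known inputs, and MT1G, MT1E, MT1M and MT1F are known as genes that tumors can silence. MT2A is usually the main isoform in human cells, the MT1 genes are its tandem copies, and MT1L is a pseudogene copy.

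All 8 genes lay in 1 cluster of 75.6 kb on chromosome 16 (hg19, from 56642478 to 56718108), in the order MT2A, MT1L, MT1E, MT1M, MT1A, MT1F, MT1G and MT1X. MT1G alone was on the minus strand. Each row spans a whole gene with its exons, introns and UTRs. MT2A was at chr16:56642478-56643409, MT1L at chr16:56651373-56652730, MT1E at chr16:56659585-56661024 and MT1M at chr16:56666534-56667898. MT1A was at chr16:56672578-56673999, MT1F at chr16:56691855-56693215, MT1G at chr16:56700653-56701977 and MT1X at chr16:56716382-56718108.

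The copies are close in sequence, and reads can match more than 1 of them. The spliced protein-coding sequences of the GENCODE annotation on hg19 are 186 bases long in every coding member but MT1G (189 bases), with 20 cysteine codons in each, and any 2 members, MT1L included, shared between 88.7% and 94.6% of their aligned bases. The pseudogene MT1L was read from its annotated transcript, which has a stop after 25 codons where the others run for 61 or 62. Sequences of some members are shown, with capitals at the bases that differ from MT2A. MT2A and MT1L were the 2 most abundant members that were lower in BRCA1-null cells. MT1E was the abundant member not called between the lines in control cells, and MT1M the member with the largest rise.
MT2A: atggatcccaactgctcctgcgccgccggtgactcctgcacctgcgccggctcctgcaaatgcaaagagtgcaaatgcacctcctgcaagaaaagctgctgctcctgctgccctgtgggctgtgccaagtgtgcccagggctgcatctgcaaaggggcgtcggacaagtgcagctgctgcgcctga
MT1L: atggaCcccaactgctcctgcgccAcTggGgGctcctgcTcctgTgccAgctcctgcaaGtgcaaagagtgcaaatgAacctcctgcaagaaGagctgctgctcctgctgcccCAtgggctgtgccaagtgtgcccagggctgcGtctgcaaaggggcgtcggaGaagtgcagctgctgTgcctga
MT1E: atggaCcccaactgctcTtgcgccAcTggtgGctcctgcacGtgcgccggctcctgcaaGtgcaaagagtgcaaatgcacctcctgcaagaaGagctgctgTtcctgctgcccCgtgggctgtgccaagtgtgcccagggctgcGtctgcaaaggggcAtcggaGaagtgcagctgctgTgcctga
MT1M: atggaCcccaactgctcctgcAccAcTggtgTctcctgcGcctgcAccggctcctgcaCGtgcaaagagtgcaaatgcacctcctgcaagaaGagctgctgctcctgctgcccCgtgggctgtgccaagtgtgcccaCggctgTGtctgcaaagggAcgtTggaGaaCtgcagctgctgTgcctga
MT1L differed from MT2A at 16 bases, MT1E at 14 and MT1M at 19. Of all windows of 50 bases along the members' transcripts, between 5.3% (MT1E) and 19.9% (MT1G) occurred unchanged in another metallothionein gene or pseudogene, and between 18.1% (MT1F) and 70.8% (MT1L) did so with at most 2 mismatches. For MT1L, 57.7% of the windows were within 2 mismatches of MT1E and 16.1% within 2 of MT2A. The MT1L windows came from only 186 bases, against 396 (MT1A) to 704 (MT1E) bases for the other members. The counted MT1L row is longer than that, and the rest of it was not searched. The MT1L shares are thus not comparable with those of the other members, whose highest share with at most 2 mismatches was 54.2% (MT1M). The counted MT1E row, at 506 bases, is shorter than the transcript searched, so the MT1E shares are not those of the row alone. How reads that match several copies were counted is not given in the sources used here, so the split of reads between copies is uncertain, both for the small counts of MT1G and for the large ones of MT1L.

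Promoters of 2 of the 8 members, MT2A and MT1X, were in the RefSeq promoter table (GRCh38.p14). They are shown over the 250 bases before the start because metal control of the family acts there. Capitals mark the core of the metal response element, searched as TGCACNC or TGCGCNC on both strands, and the marked runs do not overlap each other.
MT2A: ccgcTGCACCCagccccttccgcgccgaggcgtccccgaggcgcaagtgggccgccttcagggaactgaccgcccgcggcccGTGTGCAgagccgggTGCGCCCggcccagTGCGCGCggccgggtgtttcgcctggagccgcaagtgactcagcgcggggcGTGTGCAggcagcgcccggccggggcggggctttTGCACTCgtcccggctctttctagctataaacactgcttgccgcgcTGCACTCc
MT1X: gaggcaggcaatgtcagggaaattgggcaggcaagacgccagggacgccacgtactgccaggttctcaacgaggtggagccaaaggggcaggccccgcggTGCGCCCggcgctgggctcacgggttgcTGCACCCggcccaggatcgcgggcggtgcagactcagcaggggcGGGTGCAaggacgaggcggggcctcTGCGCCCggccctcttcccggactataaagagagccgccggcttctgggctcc
The MT2A window (chr16:56608334-56608583, plus strand) held 7 matches between 8 and 246 bases before the start, and the MT1X window (chr16:56682220-56682469, plus strand) held 4 between 53 and 150 bases before it. Of 35116 promoters in the table, 29.6% held at least 1 match and 0.6% held at least 4. These shares count the whole promoter window, which is longer than the 250 bases shown and in which MT2A held 8 matches and MT1X 4. A TATA box (TATAAA) stood 29 bases before the start of MT2A and 30 before that of MT1X. It occurred in 11.5% of all promoters, again over the whole window. A match is a run of letters and says nothing about binding in these cells.

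The libraries held between 31900158 and 53549893 counted reads. The 8 members took between 0.107% and 0.170% of them, and 3 reads, taken as the floor of detection, corresponded to between 0.0552 and 0.0946 CPM. CPM is the usual read count scaled to a common library size, here with TMM, a factor that makes libraries comparable. These limits cover counting error only. As a check of the labels, BRCA1 was at 95.6 ± 4.63 CPM (SD, n = 2) in BRCA1+ control cells and at 21.7 CPM in BRCA1-null control cells (log2 fold change -2.14). Under entinostat it was at 126 ± 11 and 18.4 CPM (log2 fold change -2.77). In edgeR's quasi-likelihood test BRCA1 was itself higher with entinostat in BRCA1+ cells (log2 fold change 0.39, adjusted p = 0.0124). In BRCA1-null cells it was not called (-0.24, adjusted p = 0.131). Of 10 markers of ovarian carcinoma and epithelium, 9 exceeded 1 CPM in every library, and the remaining one, WT1, stayed at or below 0.5 CPM. Of 6 stromal markers, COL3A1, DCN and LUM had 0 reads and PDGFRB at most 4 in every library, while COL1A1 ran from 4.07 to 22.2 CPM and COL1A2 from 8.87 to 37 CPM. Their sum was between 12.9 and 17.8 CPM in the BRCA1+ line without drug and between 25.6 and 33.7 with it, and for BRCA1-null libraries between 29.8 and 44.4 CPM without drug and between 40.9 and 59.3 under entinostat. The 4 endothelial markers, among them CDH5 (4.15 to 84.1 CPM), summed in the same order to between 9.48 and 16.2, 27.3 and 38.3, 36.6 and 54.3, and 75.1 and 92.9 CPM. The 6 leukocyte markers, of which CD3E had at most 4 reads and CD68 up to 30.9 CPM, summed to 16.6 in both BRCA1+ control libraries and to between 23.1 and 25.3, 27.1 and 28.2, and 30.9 and 39.2 CPM in the others. These sums thus moved with both line and treatment, and their part in the results was not tested.

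Per unit of length the members spanned a wide range. MT2A had a mean of 2160 RPKM (CPM divided by the row's transcript length in kilobases) over the 8 libraries and ranked 14th of 25369 genes. MT1L (436 RPKM) and MT1E (418 RPKM) ranked 176th and 182nd. MT1A followed at 39.8 RPKM, MT1X at 22.9, MT1M at 19.5 and MT1F at 8.97, and MT1G was lowest at 2.26 RPKM and rank 11612. The levels of MT1L and MT1E overlapped between libraries, as did those of MT1A, MT1X and MT1M, so that neither set has one order. In BRCA1+ control cells MT1X (24 ± 6.09 RPKM) and MT1A (22.4 ± 3.14) stood above MT1M (6.92 ± 0.338). In BRCA1-null control cells MT1A (40 ± 4.16) and MT1M (26.5 ± 5.28) stood above MT1X (15.3 ± 1.8). MT1F was above MT1M in every BRCA1+ library (8.04 ± 0.896 RPKM in control) and below it in every BRCA1-null library (6.18 ± 0.00382 in control).

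**Figure D1:**
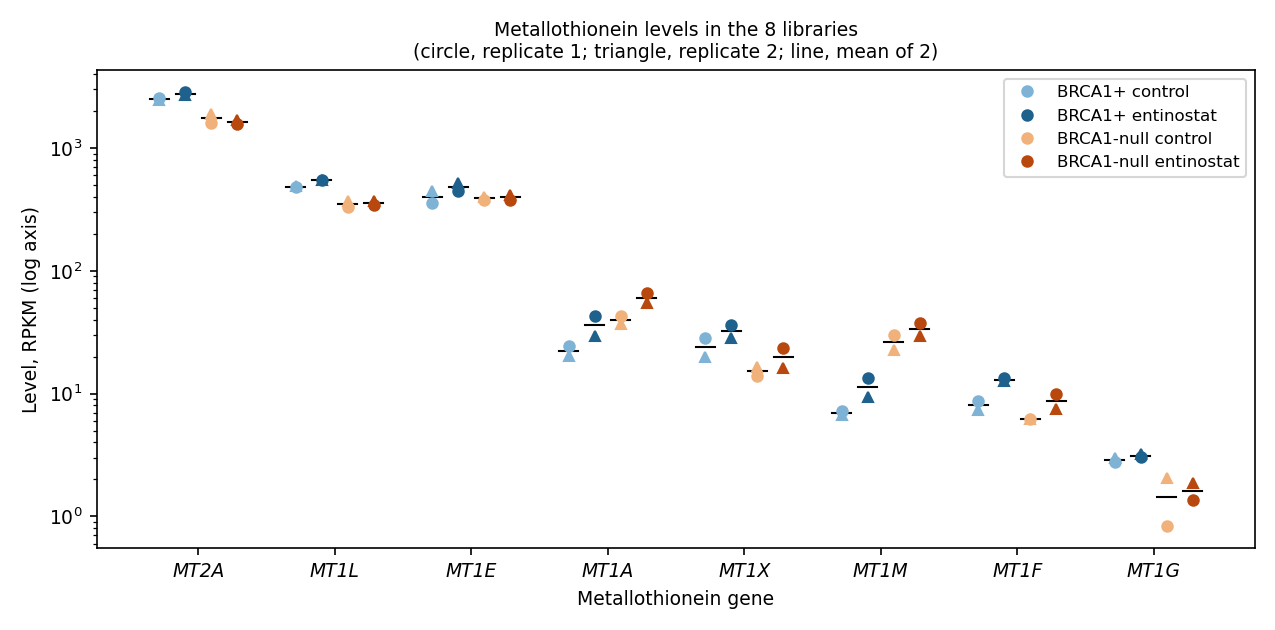
Level of each metallothionein gene in RPKM (log axis) in each of the 8 libraries, by group. Circles are replicate 1, triangles replicate 2 and short lines the mean of 2. MT2A lies near 2160 RPKM, MT1L and MT1E lie near each other (means of 436 and 418), and MT1G between 0.833 and 3.21, while MT1M and MT1A are higher in BRCA1-null than in BRCA1+ cells of the same treatment.

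All 8 members were detected in both lines, with at least 15 reads in every library, and some differed in level. In control cells, MT1M and MT1A were higher in BRCA1-null than in BRCA1+ cells, by 3.81-fold and 1.79-fold, whereas MT2A and MT1L were lower, at 0.70 and 0.72 of the BRCA1+ level. Thus 4 of 8 members were called in edgeR's quasi-likelihood test (adjusted p under 0.05 over all 17714 genes tested), 2 in each direction. The lines differ widely: 42.2% of all tested genes were called in this comparison, 21.1% higher and 21% lower in BRCA1-null cells, and the share among the members is near that background. The median log2 fold change of the 8 members was -0.43, against 0.01 over all genes tested.

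MT1M is one of the MT1 copies known to be silenced in some tumors. It was at 3.15 and 2.94 CPM in the BRCA1+ control libraries and at 13.3 and 10.01 CPM in the BRCA1-null control libraries, from 126 and 135 against 605 and 544 reads. The groups did not overlap, and the log2 fold change was 1.93 (95% confidence interval 1.42 to 2.44, adjusted p = 1.67e-04). MT1A, another MT1 copy, was at 9.76 and 7.996 CPM in BRCA1+ and at 17.0 and 14.7 CPM in BRCA1-null control libraries. Again every BRCA1-null library was higher, with a log2 fold change of 0.84 (0.40 to 1.27, adjusted p = 0.00721). The call on MT1A was lost when replicate 2 of BRCA1+ control was left out (log2 fold change 0.70, adjusted p = 0.0614). In bulk RNA, fewer cells that express a gene and less RNA of it per cell cannot be told apart.

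MT2A, the most abundant metallothionein, was at 1065 and 1023 CPM in the BRCA1+ control libraries and at 670.0 and 791 CPM in the BRCA1-null control libraries. Both BRCA1-null values were lower, with a log2 fold change of -0.52 (-0.69 to -0.34, adjusted p = 7.17e-04). MT1L, the pseudogene copy, was at 205 and 208 CPM in BRCA1+ and at 140.3 and 157 CPM in BRCA1-null control libraries. Its log2 fold change was -0.48 (-0.62 to -0.33, adjusted p = 4.12e-04). The MT1L row moved with the MT2A row: the ratio of their reads was between 0.193 and 0.225 in all 8 libraries.

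The other 4 members were not called between the lines in control cells. MT1X was at 11.4 and 7.95 CPM in BRCA1+ and at 5.65 and 6.68 CPM in BRCA1-null libraries, with no overlap and a log2 fold change of -0.64 (-1.16 to -0.11, adjusted p = 0.0531). MT1G was at 1.10 and 1.18 CPM in BRCA1+ and at 0.33 and 0.81 CPM in BRCA1-null libraries (log2 fold change -0.95, -1.77 to -0.13, adjusted p = 0.0631), where the lowest value rests on 15 reads. The calls on both depended on the fit. With the replicate number as a block, a fit that takes same-numbered libraries as paired, MT1X (log2 fold change -0.62, adjusted p = 0.0133) and MT1G (-0.95, adjusted p = 0.0347) were called, which made 6 of 8 members against 50.5% of all tested genes. MT1X was also called by DESeq2's Wald test (-0.65, adjusted p = 0.0133) and in a fit of only the groups compared (-0.63, adjusted p = 0.0367). Among fits without 1 library, MT1X was called without either replicate of BRCA1-null entinostat (adjusted p = 0.0366 without replicate 1 and 0.0365 without replicate 2) or without BRCA1+ control replicate 2 (0.0277), and MT1G without BRCA1-null control replicate 2 (log2 fold change -1.78, adjusted p = 0.012).

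MT1F was at 3.83 and 3.27 CPM in BRCA1+ control and at 2.72 CPM in both BRCA1-null control libraries (log2 fold change -0.37, -0.80 to 0.05, adjusted p = 0.144). MT1E, with RNA about as abundant as that of MT1L, was at 181 and 227 CPM in BRCA1+ and at 191 and 202 CPM in BRCA1-null libraries. Its groups overlapped, and the interval of its log2 fold change ran from -0.30 to 0.19 around -0.05 (adjusted p = 0.721). A difference in MT1E beyond that interval was thus not detected, while its neighbours on either side in the cluster, MT1L and MT1M, were called in opposite directions.

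Under entinostat the 4 members called in control were called again, each in the same direction. MT1M was at 5.87 and 4.14 CPM in BRCA1+ and at 16.4 and 13.0 CPM in BRCA1-null libraries (log2 fold change 1.59, 1.13 to 2.06, adjusted p = 3.22e-04). MT1A was at 17.0 and 11.6 CPM in BRCA1+ and at 26.3 and 21.6 CPM in BRCA1-null libraries (log2 fold change 0.77, 0.37 to 1.18, adjusted p = 0.00769). MT2A was at 1200 and 1127 CPM in BRCA1+ and at 660 and 703 CPM in BRCA1-null libraries (log2 fold change -0.77, -0.95 to -0.60, adjusted p = 7.56e-05). MT1L followed it, with 234 and 236 CPM against 147 and 158 CPM (log2 fold change -0.62, -0.77 to -0.47, adjusted p = 9.8e-05).

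In all, 6 of 8 members were called between the lines under entinostat, 2 higher and 4 lower in BRCA1-null cells, against 39.4% of all tested genes, 20.5% higher and 18.9% lower. MT1F, at 5.93 and 5.54 CPM in BRCA1+ and at 4.35 and 3.28 CPM in BRCA1-null libraries, was called lower (log2 fold change -0.57, adjusted p = 0.0242). MT1X, at 14.8 and 11.5 CPM against 9.51 and 6.54 CPM, was called lower as well (log2 fold change -0.68, adjusted p = 0.0359). MT1E, at 227 and 263 CPM against 192 and 209 CPM, did not overlap between the lines but was not called (log2 fold change -0.29, -0.54 to -0.05, adjusted p = 0.0554). MT1G, at 1.20 and 1.27 CPM against 0.53 and 0.74 CPM, was not called either (log2 fold change -0.97, -1.81 to -0.13, adjusted p = 0.0653).

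With the replicate block, MT1E (log2 fold change -0.29, adjusted p = 0.00299) and MT1G (-0.93, adjusted p = 0.0441) were called as well, so that all 8 members were called against 47.4% of all tested genes. A fit of only the groups compared also called MT1E (adjusted p = 0.0188) and MT1G (0.0351), and DESeq2's Wald test called MT1E (0.0144).

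Several calls also turned on 1 library. MT1A was lost without BRCA1-null entinostat replicate 1 (adjusted p = 0.0539) or BRCA1+ entinostat replicate 2 (0.0775, log2 fold change 0.49). MT1F was lost without BRCA1+ entinostat replicate 1 (adjusted p = 0.093), BRCA1+ entinostat replicate 2 (0.0805) or BRCA1-null entinostat replicate 2 (0.138). MT1X was lost without BRCA1+ entinostat replicate 1 (adjusted p = 0.176) or BRCA1-null entinostat replicate 2 (0.189, log2 fold change -0.44). MT1E gained a call without BRCA1+ control replicate 1 (adjusted p = 0.0189), BRCA1+ control replicate 2 (0.0196) or BRCA1+ entinostat replicate 1 (0.0395), and MT1G without replicate 1 or 2 of BRCA1-null control (0.0249 and 0.0252). MT1M, MT2A and MT1L kept their calls between the lines under every alternative run, in both treatments.

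**Figure D2:**
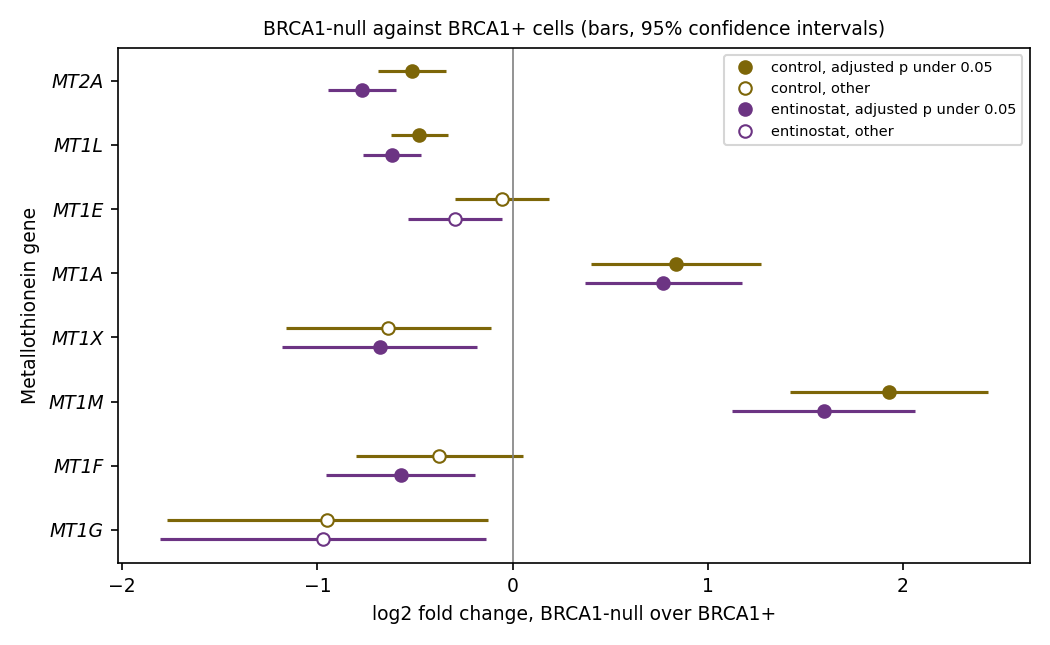
log2 fold change of each metallothionein gene in BRCA1-null over BRCA1+ cells, in control (upper mark of each pair) and entinostat libraries (lower mark), with 95% confidence intervals. Filled marks have an adjusted p under 0.05: MT1M (1.93 and 1.59) and MT1A (0.84 and 0.77) lie to the right of 0, MT2A and MT1L to the left in both.

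The total was also lower in BRCA1-null cells. Summed over the 8 members, the level was 1481 ± 0.993 CPM (SD, n = 2) in BRCA1+ control, 1683 ± 32.8 in BRCA1+ entinostat, 1112 ± 101 in BRCA1-null control and 1086 ± 42 in BRCA1-null entinostat. Every BRCA1-null library was below every BRCA1+ library, and MT2A made up between 62.5% and 71.9% of the reads. Without MT2A the sum was 437 ± 30.3 CPM in BRCA1+ control and 382 ± 15.9 in BRCA1-null control. The summed log2 difference between the lines in control was -0.42, with -0.30 without BRCA1-null control replicate 1 and -0.51 without replicate 2.

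Ratios of reads within a library, which no library scaling affects, differed between the lines. MT1A stood at between 0.853 and 1.15 reads per read of MT1X in the BRCA1+ libraries and at between 2.2 and 3.3 in the BRCA1-null libraries. MT1M stood at between 0.013 and 0.0258 reads per read of MT1E in BRCA1+ and at between 0.0496 and 0.0855 in BRCA1-null libraries. Neither ratio overlapped between the lines. Each sets a member called higher in BRCA1-null cells over one that was not called higher, so the ratios restate those differences and are not separate support. Over the 8 libraries log2 CPM of MT1A correlated with that of MT1M (Pearson's r = 0.918) and log2 CPM of MT1L with that of MT2A (r = 0.98), while MT1M and MT2A ran opposite (r = -0.883). These are descriptions over 8 libraries that share 2 lines and 1 scaling, and each of these 4 genes differs between the lines.

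**Figure D3:**
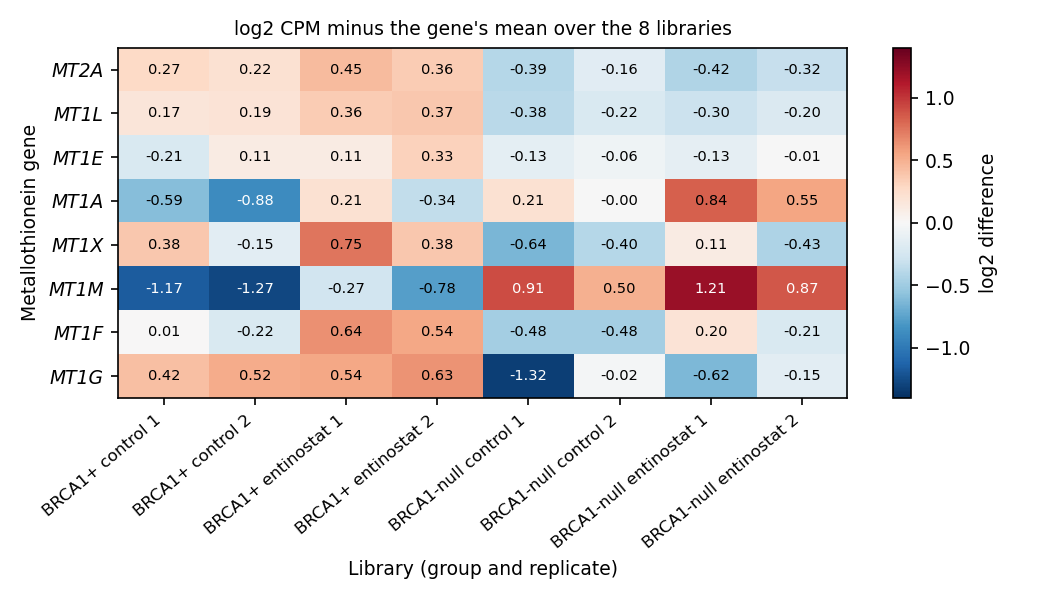
log2 CPM of each metallothionein gene in each library, as the difference from that gene's mean over the 8 libraries (red, higher; blue, lower). MT1M runs from -1.27 in BRCA1+ control replicate 2 to 1.21 in BRCA1-null entinostat replicate 1, MT2A and MT1L show the opposite step between the lines, and MT1E varies least by line.

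How many members passed the test with entinostat depended on whether same-numbered libraries were taken as paired. In BRCA1+ cells, 1 of 8 members, MT1F, was called without the replicate block, against 14.1% of all tested genes, 8.15% higher and 6% lower with entinostat. The MT1F level was 3.83 and 3.27 CPM in control and 5.93 and 5.54 CPM in treated libraries, a rise of 1.62-fold (log2 fold change 0.69, 0.30 to 1.08, adjusted p = 0.0299). It was lost in each fit that left out a BRCA1+ library, with an adjusted p of 0.0642 without control replicate 1, 0.169 without control replicate 2, 0.133 without entinostat replicate 1 and 0.123 without entinostat replicate 2. With the replicate block 5 members were called, all higher, against 24.4% of all tested genes and 13% called higher. These were MT1F (adjusted p = 0.0083), MT1A (0.00218), MT1M (0.00921), MT1E (0.0107) and MT1L (0.0254), with log2 fold changes of 0.70, 0.67, 0.69, 0.27 and 0.18. DESeq2's Wald test called MT1A (adjusted p = 0.0034) and MT1M (0.0199) beside MT1F. With upper-quartile scaling the calls among all genes shifted from 57.6% higher to 72.5% higher, and MT1A (adjusted p = 0.0497) and MT1L (0.0411) were called beside MT1F.

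The other 7 members were not called in BRCA1+ cells without the block, though in all 8 both treated libraries were above both control libraries, which held for 28.9% of all tested genes. MT1A went from 9.76 and 7.996 CPM to 17.0 and 11.6 CPM (log2 fold change 0.67, 0.21 to 1.12, adjusted p = 0.0573), and was called without entinostat replicate 2 (0.94, adjusted p = 0.0398). MT1M went from 3.15 and 2.94 CPM to 5.87 and 4.14 CPM (log2 fold change 0.68, 0.08 to 1.29, adjusted p = 0.129). The abundant members differed less: the log2 fold change was 0.27 for MT1E (adjusted p = 0.134), 0.18 for MT1L (adjusted p = 0.0971) and 0.16 for MT2A (interval -0.02 to 0.33, adjusted p = 0.22). MT1E was called without control replicate 2 (log2 fold change 0.44, adjusted p = 0.0452). For MT1X it was 0.43 (-0.06 to 0.92, adjusted p = 0.232) and for MT1G 0.12, with a wide interval from -0.62 to 0.86.

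In BRCA1-null cells 0 of 8 members were called in edgeR's test without the block, against 10.8% of all tested genes, 7.57% higher and 3.19% lower. At an unadjusted p under 0.05 there were 2, MT1A and MT1F, against 4856 of all 17714 genes tested. DESeq2's Wald test called 1, MT1A (adjusted p = 0.0166), against 1669 genes in all. With the replicate block MT1A (log2 fold change 0.59, adjusted p = 0.00226) and MT1M (0.34, adjusted p = 0.0309) were called, both higher, against 20.6% of all tested genes and 13% called higher. MT1A went from 17.0 and 14.7 CPM to 26.3 and 21.6 CPM, a log2 fold change of 0.60 (0.22 to 0.99, adjusted p = 0.0539), and was called without either BRCA1+ entinostat library (adjusted p = 0.0392 without replicate 1 and 0.0388 without replicate 2). MT1F went from 2.72 CPM in both control libraries to 4.35 and 3.28 CPM (log2 fold change 0.49, 0.08 to 0.91, adjusted p = 0.122). In these 2 members the treated libraries lay above the control libraries, which held for 30% of all tested genes, and in the other 6 the groups overlapped.

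MT2A in BRCA1-null cells was at 670.0 and 791 CPM in control and at 660 and 703 CPM in treated libraries, a log2 fold change of -0.10 (-0.27 to 0.07, adjusted p = 0.449). MT1L (0.04, -0.11 to 0.19) and MT1E (0.03, -0.22 to 0.27) were as close to 0 on the log2 scale. The log2 fold change was 0.38 for MT1X (-0.15 to 0.92), 0.35 for MT1M (-0.04 to 0.74) and 0.10 for MT1G (-0.84 to 1.04). The 4 BRCA1-null libraries held only 15 to 44 reads of MT1G, and a change within that interval was not detectable at this depth.

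**Figure D4:**
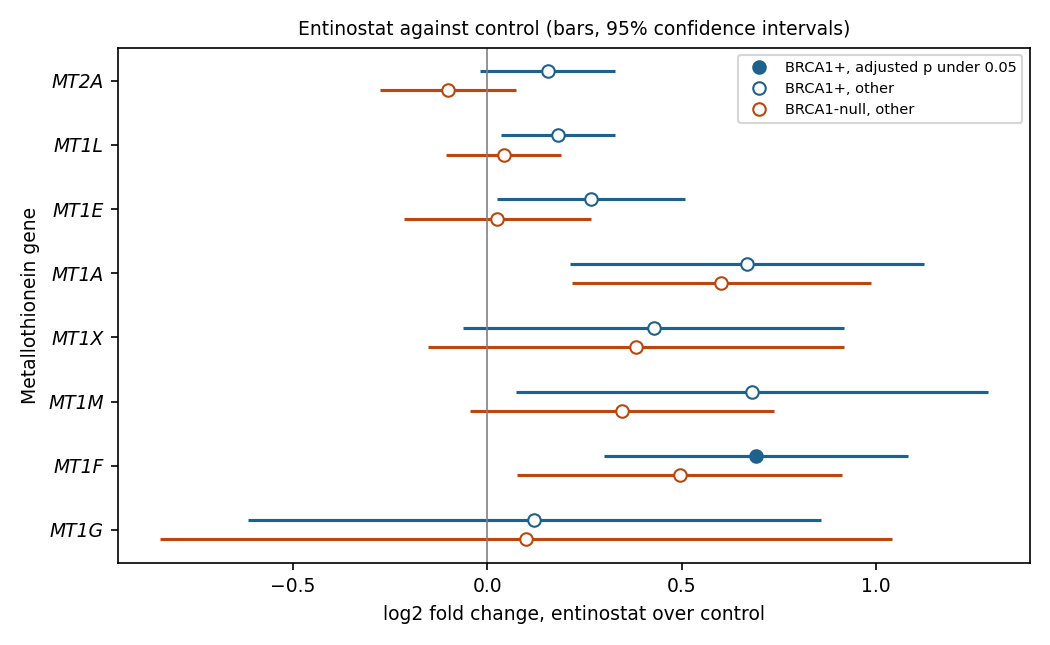
log2 fold change of each metallothionein gene with entinostat over control in BRCA1+ (upper mark of each pair) and BRCA1-null cells (lower mark), with 95% confidence intervals. MT1F in BRCA1+ (0.69) is the filled mark, with an adjusted p under 0.05 without the replicate block, and the marks of MT1A and MT1F lie farther right than those of MT2A, MT1L and MT1E in both lines.

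Whether the response to entinostat differed between the lines was tested directly as an interaction, and 0 of 8 members were called, as 0% of all 17714 genes were (edgeR, 827 genes and 1 member at an unadjusted p under 0.05). The difference of the log2 fold changes, BRCA1-null minus BRCA1+, was below 0 in all 8 members, from -0.34 in MT1M to -0.02 in MT1G. It was -0.26 in MT2A (interval -0.50 to -0.01, unadjusted p = 0.043, adjusted p = 0.967), and in no other member did the interval exclude 0. The differences within the family share the control libraries of each line and are not separate observations.

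The line effect did not follow a gradient along the cluster. From MT2A onward the log2 fold changes in control were -0.52, -0.48 (MT1L), -0.05 (MT1E), 1.93 (MT1M), 0.84 (MT1A), -0.37 (MT1F), -0.95 (MT1G) and -0.64 (MT1X), so that the 2 members called higher were next to each other among the members, with the pseudogene MT1JP between them. MT1JP had between 11 and 53 reads and a log2 fold change of -0.85 that was not called (adjusted p = 0.145), and MT1DP, on the far side of MT1A, one of -0.71 (adjusted p = 0.161). Both were called without BRCA1-null control replicate 2, MT1JP at -1.97 (adjusted p = 0.0148) and MT1DP at -1.63 (adjusted p = 0.0152), and the other fits that left out 1 library gave values as close to 0 as -0.28 and -0.21. Both were lower in BRCA1-null cells under entinostat, MT1DP with a log2 fold change of -1.54 (adjusted p = 0.0111) and MT1JP with -1.35 (adjusted p = 0.0412). The call on MT1DP was lost without BRCA1-null entinostat replicate 1 (0.0716) or BRCA1+ entinostat replicate 2 (0.0696), and that on MT1JP without any 1 of the 4 entinostat libraries (0.0965 to 0.163) and in DESeq2's Wald test (0.0716). Of the MT1M windows, 43.8% were within 2 mismatches of MT1JP.

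Of the remaining metallothionein rows, MT1B had between 104 and 243 reads, MT1IP between 20 and 75, MT1H between 2 and 25, and MT3, a form of the nervous system, between 2 and 6. MT4 and MT1HL1 had 0 in every library, which allows up to 3 reads each. The BRCA1-null control replicate 1 library was the lowest of all 8 for MT1G (15 reads), MT1H (2), MT1JP (11), MT1DP (17) and MT1IP (20). Of the 5 tested metallothionein rows outside the 8 members, 0 were called in edgeR's test between the lines in control or with entinostat in either line. MTL5, which encodes the testis protein tesmin and stood on the same list, was not called in these comparisons either.

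**Figure D5:**
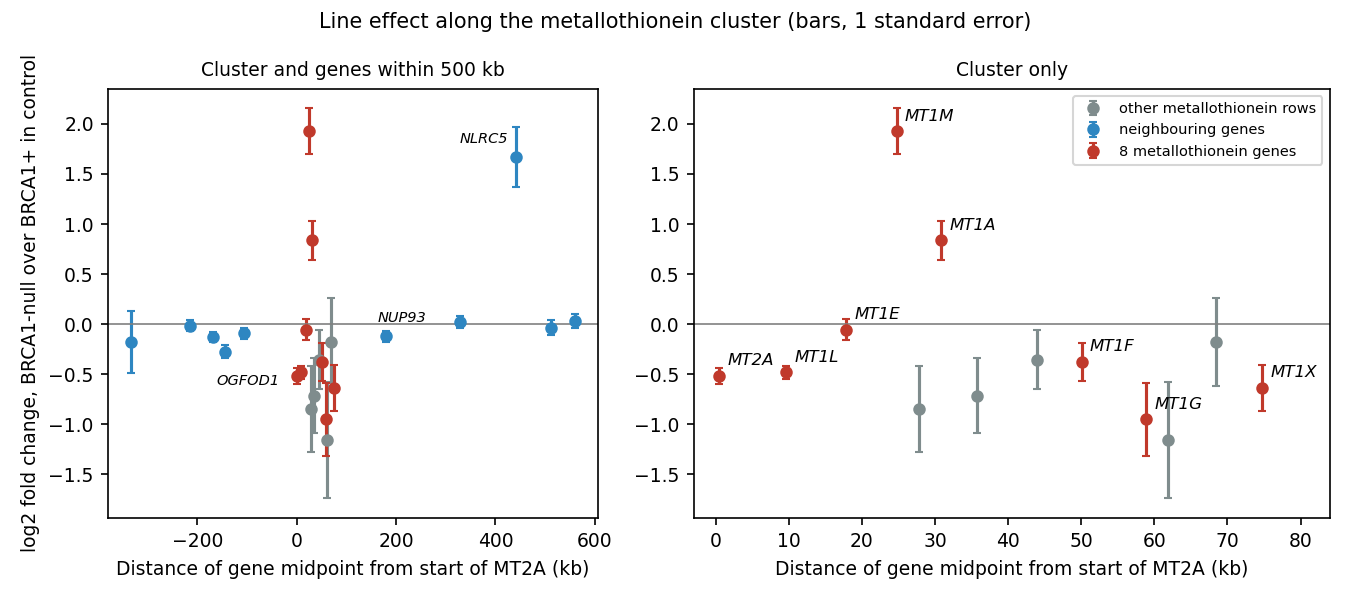
log2 fold change of BRCA1-null over BRCA1+ in control libraries against the distance of each gene's midpoint from the start of MT2A in kb, for the 8 metallothionein genes (red), the other tested metallothionein rows (grey) and the tested genes within 500 kb (blue), with bars of 1 standard error. MT1M (1.93) and MT1A (0.84) stand above 0 in the middle of the cluster, NLRC5 (1.67) stands apart on the right, and the other neighbouring genes lie closer to 0.

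Of 17 genes within 500 kb of the cluster, 10 were tested, of which 1 was called higher and 1 lower in BRCA1-null control cells. Over all tested genes 42.2% were called in this comparison. The neighbour called higher was NLRC5, a regulator of MHC class I genes, at 1.67 (adjusted p = 0.00201). The lower one was OGFOD1, a ribosomal protein hydroxylase on the MT2A side, at -0.27 (adjusted p = 0.0064). BBS2 and NUP93, the nearest tested genes on either side, were called in none of the comparisons, and MIR138-2 had 0 reads. With entinostat, 3 of the 10 tested neighbours were called higher and 0 lower in each line, NLRC5 among them. The shares of all tested genes called were 14.1% in BRCA1+ and 10.8% in BRCA1-null cells. Between the lines under entinostat, 2 neighbours were higher and 1 lower in BRCA1-null cells, against 39.4% of all tested genes called. The neighbours were not tested against these shares. NLRC5 had between 20 and 206 reads. It was also higher with entinostat in BRCA1+ (1.29, adjusted p = 0.0339) and BRCA1-null cells (0.93, adjusted p = 0.0221), and each of these calls was lost in 4 of 8 fits that left out 1 library (adjusted p from 0.0548 to 0.167 and from 0.0695 to 0.101), the latter also in DESeq2's Wald test (0.0551). OGFOD1 was lost in 2 such fits (adjusted p of 0.0516 and 0.0559).

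MTF1, the zinc sensor of this family, was at 11.6 ± 0.785 CPM (SD, n = 2) in BRCA1+ control, 10.9 ± 0.079 in BRCA1+ entinostat, 11.6 ± 0.542 in BRCA1-null control and 10.1 ± 0.604 in BRCA1-null entinostat, and was called in none of the comparisons (adjusted p from 0.276 to 0.975). SLC30A1, the zinc exporter that MTF1 also controls, was at 20.2 ± 0.703, 23.7 ± 1.86, 18.2 ± 2.59 and 19.9 ± 0.0905 CPM in the same order and was not called either (adjusted p from 0.0869 to 0.975). Its lower level in BRCA1-null cells under entinostat passed the threshold without BRCA1-null control replicate 1 (adjusted p = 0.0436) or 2 (0.0491).

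Of 7 tested SLC30 zinc exporters and vesicular zinc transporters, SLC30A1 included, 2 were higher and 1 lower in BRCA1-null control cells. The lower one was SLC30A5 (log2 fold change -0.50, adjusted p = 0.00296), and 0 of 7 were called with entinostat in either line. Of 11 SLC39 importers, which bring zinc into the cytosol, 0 were higher and 1 lower in control. This was SLC39A8, which carries zinc, manganese and cadmium, at 116 ± 6.96 CPM in BRCA1+ and 45.9 ± 4.6 in BRCA1-null cells (log2 fold change -1.34, adjusted p = 7.1e-06), a difference that was also called under entinostat (-1.31, adjusted p = 9.74e-06). With entinostat 1 importer was higher and 2 were lower in BRCA1+ cells, and 1 was higher and 1 lower in the BRCA1-null line. SLC39A4, a zinc importer of the cell surface, was lower in both lines, by a log2 fold change of -0.77 in the BRCA1+ line (adjusted p = 0.00157) and one of -0.49 without BRCA1 (adjusted p = 0.0108), the latter lost in 2 of 8 fits that left out 1 library (adjusted p of 0.0723 and 0.0724). SLC39A14, which carries zinc, iron and manganese, was higher in both, by 0.32 with BRCA1 (adjusted p = 0.0136) and by 0.41 without it (adjusted p = 0.00729), the former lost in 4 such fits (adjusted p from 0.0585 to 0.0902).

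The other importer called lower in BRCA1+ cells was SLC39A10, with a log2 fold change of -0.23 (adjusted p = 0.0426). This call was lost in 11 of 15 alternatives: in 6 fits that left out 1 library (adjusted p from 0.0602 to 0.228), with upper-quartile scaling (0.0777), no filter (0.0533), a mean CPM of at least 1 (0.0515) or only the groups compared (0.0545), and in DESeq2's Wald test (0.0508).

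Counts over other metal and stress genes stand beside the shares of all tested genes called, 14.1% and 10.8% with entinostat in BRCA1+ and BRCA1-null cells and 42.2% between the lines in control, and the lists were not tested against them. Of 12 copper genes, 2 were higher with entinostat in BRCA1+ cells and 1 in the BRCA1-null line, with ATP7A, a copper exporter, called in both (0.86 and 0.53, adjusted p = 0.00825 and 0.0467), the latter lost in 11 of 15 alternatives and the former in 2. In BRCA1-null cells these were 7 of 8 fits without 1 library (adjusted p from 0.0653 to 0.186), no filter (0.0539), a mean CPM of at least 1 (0.0519), only the groups compared (0.121) and DESeq2's Wald test (0.0565), and in BRCA1+ cells 2 fits without 1 library (0.0558 and 0.0867). Of 10 iron genes, 2 were higher and 1 lower with entinostat in each line, led by the iron exporter SLC40A1 (1.24 in the BRCA1+ line, 1.75 in the BRCA1-null line), whose call was lost in 4 and 2 such fits (adjusted p from 0.0544 to 0.104) and, in the BRCA1-null line, with only the groups compared (0.0581). Of 13 genes of the NRF2 and oxidative stress response, 1 was higher and 4 lower in BRCA1-null control cells, with a median log2 fold change of -0.23 against 0.01 over all genes tested.

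Of 11 heat shock genes, 0 were higher and 3 lower in BRCA1-null control cells, with the chaperone DNAJA1 at -0.53 (adjusted p = 0.0103), lost without BRCA1+ control replicate 1 (0.0647) or BRCA1-null control replicate 2 (0.0713). Of 10 glucocorticoid receptor targets, 3 were higher and 5 lower in BRCA1-null control cells, and SGK1, a kinase that glucocorticoids induce, was the most changed (2.04, adjusted p = 2.47e-05).

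Over the 8 libraries, 1015 of 10400 genes whose log2 CPM averaged 3 or more had a Pearson's r of at least 0.9 with the summed metallothionein level. Among the closest were FAM73A (r = 0.99), TINAGL1 (0.99), SGSM3 (0.987) and GORASP1 (0.987), and the most opposite were CYB5R2 (-0.995), LSM3 (-0.992) and YWHAG (-0.988). With 8 libraries in 2 lines, any gene that steps between the lines and varies little otherwise reaches such values.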

How the data were processed

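Poly(A) RNA-seq libraries of 8 samples in 4 groups were used. Per the labels and the study's methods, the authors aligned reads to hg19 with TopHat 2 and counted reads per gene with NGSUtils, and they deposited whole-number counts that were not normalized. Strand, read length and the treatment of reads that match several copies are not given in the sources used here, so reads of near-identical copies and of overlapping genes may be assigned to the wrong row. The table held 1 unnamed row with 0 counts, which was left out. Library totals were 31900158 to 53549893.

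Genes that passed filterByExpr (17714 of 25369) were fitted in 1 model of 4 groups with edgeR 4.0.16 (R 4.3.3), TMM scaling and the two-sided quasi-likelihood test, with Benjamini-Hochberg adjustment over all 17714 genes and a call at an adjusted p under 0.05. The fit was tested on simulated data. The biological coefficient of variation was 9.04%. RPKM used the transcript length given for each row. Replicates of a group differed by more than sampling noise (chi-square of 8.15 to 13.8 per degree of freedom). Alternatives were other scalings and filters, DESeq2 1.42.0, only the groups compared, a replicate block, and leaving out each library. The numbers 1 and 2 recur in every group, and same-numbered libraries deviated together in all 6 pairs of groups over 10405 genes. Within a line r was 0.718 (BRCA1+) and 0.638 (BRCA1-null), whereas across the lines it was only 0.234 to 0.298. The block takes 1 replicate shift as common to both lines, and blocked values are given where they were seen to change a call. The pairing comes from these deviations, and no label says what a number shares.

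The members and gene lists were chosen with earlier results of these data known. The other genes named were MTF1, SLC30A1, SLC39A10, from each list the called genes with the largest absolute log2 fold change, neighbours called with a log2 fold change of 1 or more in size, the genes that flank the cluster, and the genes most and least correlated with the summed level. The rule allows up to 3 genes a list, of which 3 were used for the importers, both called metallothionein pseudogenes for theirs, and the first for the others. OGFOD1 was named outside it after its values were seen, as the called neighbour that was lower. Some genes that the rule names, and some sequences, are not reported here. Coding sequences came from GENCODE on hg19 (for each gene, the transcript with the longest complete coding sequence of at most 200 bases) and promoters from RefSeq (GRCh38.p14). Promoters of MT1A, MT1E, MT1F, MT1G, MT1L and MT1M were not in the table used here.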

Additional observations from a re-analysis of the deposited data

How the results depend on the processing

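The number of members called between the lines stayed between 4 and 6 of 8 in control and between 4 and 8 under entinostat over all alternatives run, and the interaction stayed at 0. With entinostat in BRCA1+ cells, where 1 member was called, upper-quartile scaling and DESeq2's Wald test each called 3. Over all genes they called 2418 and 2495, against 2505 without them. The call on MT1F was lost without any 1 BRCA1+ library, in fits that also called fewer genes over all. In BRCA1-null cells, where 0 were called, the Wald test called 1, MT1A, with 1669 genes called over all. MT1A was also called without either BRCA1+ entinostat library. The replicate number as a block raised the calls to 5 in BRCA1+ and 2 in BRCA1-null cells with entinostat, all higher, and to 6 and 8 between the lines. It changed no other call on the members. For the other genes named it changed no call in the comparisons for which alternatives were run, which do not cover every gene or comparison. Over all genes, the block raised the calls with entinostat from 2505 to 4319 in BRCA1+ and from 1906 to 3641 in BRCA1-null cells, and only the groups compared gave 712 in BRCA1-null cells.

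Some uncalled log2 fold changes crossed 0. Leaving out 1 library gave -0.21 to 0.12 for MT1E between the lines in control. With entinostat in BRCA1-null cells it gave -0.035 to 0.085 for MT1E, -0.38 to 0.93 for MT1G, -0.058 to 0.12 for MT1L, -0.24 to 0.024 for MT2A and -0.010 to 0.26 for SLC30A1. For the interaction it gave -0.35 to 0.20 for MT1A, -0.51 to 0.81 for MT1G and -0.35 to 0.20 for MT1X, and the replicate block gave 0.026 for MT1G. MTF1 between the lines in control was at 0.037 with upper-quartile scaling, 0.033 with a mean CPM of at least 1 and -0.076 to 0.060 without 1 library. The cause was not tested. The low rows limit the depth: MT1G could not be tested with a mean CPM of at least 1, and 1015 genes correlated at 0.9 or more with the summed level, 1234 without a minimum level.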
